A study of Mus musculus with 12 samples.

Results

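Potassium channel genes were examined in mouse prefrontal cortex and hippocampus. They were taken as every gene whose symbol in the array's annotation begins with Kcn, apart from Kcne2 and Kcnj13, and 82 of the 18193 genes that have a probe set with 1 gene symbol met this rule. Each gene is represented by the probe set with the highest mean over the 12 arrays, out of 165 probe sets for the 82 genes. The signals are log2 values from Affymetrix expression arrays, so a difference of 1 is a doubling, and only signals of the same probe set were compared. Total RNA came from 4 groups of 3 arrays each, 1 for each combination of the 2 genotypes with the 2 tissues. APLP2-KO mice (APLP2-/-) lack the amyloid precursor-like protein APLP2. APPsα-DM mice (APPα/αAPLP2-/-) lack it too, and their App gene is replaced by a knock-in allele that encodes the secreted ectodomain APPsα in place of full-length APP, wherever App is expressed. All mice were C57BL/6 females of 38 to 40 weeks after 6 generations of backcrossing. The loss of APLP2 is shared by every group, and the App allele is the stated difference between the genotypes. Whether other DNA carried along with that allele also differs was not examined. The design gives 3 mice per genotype for both tissues, and the labels do not tie a cortex sample to a hippocampus sample of the same mouse. The tissues were therefore compared without pairing, and where a fit that pairs same-numbered samples (the replicate block) changes a call, its adjusted p is given beside it. The 82 genes fall into 15 classes of channel subunits, and 13 of them had a mean signal under 5, called dim here and kept in every count.

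Potassium channels let potassium leave the cell and so pull the membrane potential down after excitation. Voltage-gated (Kv) channels set the width of the action potential and the rate of firing, K2P leak and inward rectifier channels hold the resting potential, and calcium- and sodium-activated channels follow a spike with a hyperpolarisation. In the forebrain, neuron types of cortex and hippocampus are known for different mixtures of these subunits, including silent subunits that carry no current alone, and cytoplasmic or membrane-bound accessory subunits.

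App, the gene edited in the APPsα-DM mice, separated the genotypes on every array, with signals of 13.38 to 13.50 on the 6 APLP2-KO arrays and 11.46 to 11.83 on the 6 APPsα-DM arrays. Of 11 markers of hippocampal pyramidal and granule neurons, 10 were higher in hippocampus in both genotypes, and 8 of 10 measured markers of cortical projection neurons were lower there. Nr4a2 alone of those 10 was higher. Markers of striatal neurons differed as well: all 10 measured were lower in hippocampus in both genotypes, and the log2 of their summed signal was 13.14 to 13.80 on cortex arrays against 11.05 to 11.47 on hippocampus arrays. A pair of cortex arrays, APLP2-KO replicate 3 and APPsα-DM replicate 2, stood apart in Ttr, a choroid plexus gene, with signals of 14.03 and 14.18 against 8.20 to 9.42 on the other cortex arrays. On hippocampus arrays Ttr ranged from 10.63 to 14.36. Where leaving out the pair of cortex arrays ended the call of a channel gene or of a partner of these channels, both adjusted p-values are given.

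The tissue comparison asked which potassium channel genes differ between hippocampus and cortex within each genotype. More of them were lower in hippocampus than higher. In APLP2-KO mice 32 of the 82 genes passed the test (limma, Benjamini-Hochberg adjusted p under 0.05 over 45037 probe sets), or 39.0%, where 12.6% of all probe sets passed and 16.5% of genes represented in the same way. The 27 genes that were lower made up 32.9% of the 82, against 6.98% of all probe sets and 9.70% of genes, while the 5 that were higher made up 6.10%, against 5.62% and 6.78%. In APPsα-DM mice 27 genes passed, or 32.9%, against 10.6% of all probe sets and 13.9% of genes. There, 22 were lower (26.8%, against 5.42% of probe sets and 7.34% of genes) and 5 were higher (6.10%, against 5.21% and 6.59%). The median difference over the 82 genes was -0.15 in APLP2-KO and -0.08 in APPsα-DM mice, beside 0.01 and -0.01 over all probe sets. Without the pair of cortex arrays high in Ttr, 5 genes were higher and 24 lower in APLP2-KO, and 5 higher and 23 lower in APPsα-DM mice. In these bulk samples a lower signal from fewer cells of a type cannot be told apart from less RNA per cell.

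A set of 26 genes passed in both genotypes, 5 of them higher in hippocampus and 21 lower. For all 26, no hippocampus array of either genotype overlapped the cortex arrays of that genotype. Over all probe sets, 3.89% were higher and 4.43% lower in both genotypes (5.06% and 6.30% of genes), and 3.86% and 4.41% were so without overlap. In what follows, a pair of differences or adjusted p-values gives APLP2-KO first and APPsα-DM second. The 5 higher genes were Kcng2, Kcnn2, Kcng1, Kcnd3 and Kcnab2. Among the 21 lower ones, Kcnh5, Kcna5, Kcnv1, Kcnab3, Kcnt1, Kcnh1, Kcnj4, Kcnf1, Kcns1, Kcnh3, Kcna6 and Kcnk3 had the greatest differences as the mean of both genotypes. In APPsα-DM mice alone the order differed, and Kcnk2, at -0.72, fell by more than Kcnh3, Kcna6, Kcns1 or Kcnk3. The genotypes share no array, and the 82 tissue differences in APLP2-KO followed those in APPsα-DM with Pearson's r = 0.946 and Spearman's rho = 0.890, given as a description across genes measured on the same array design. The sign was the same for 68 of 82 genes.

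**Figure D1:**
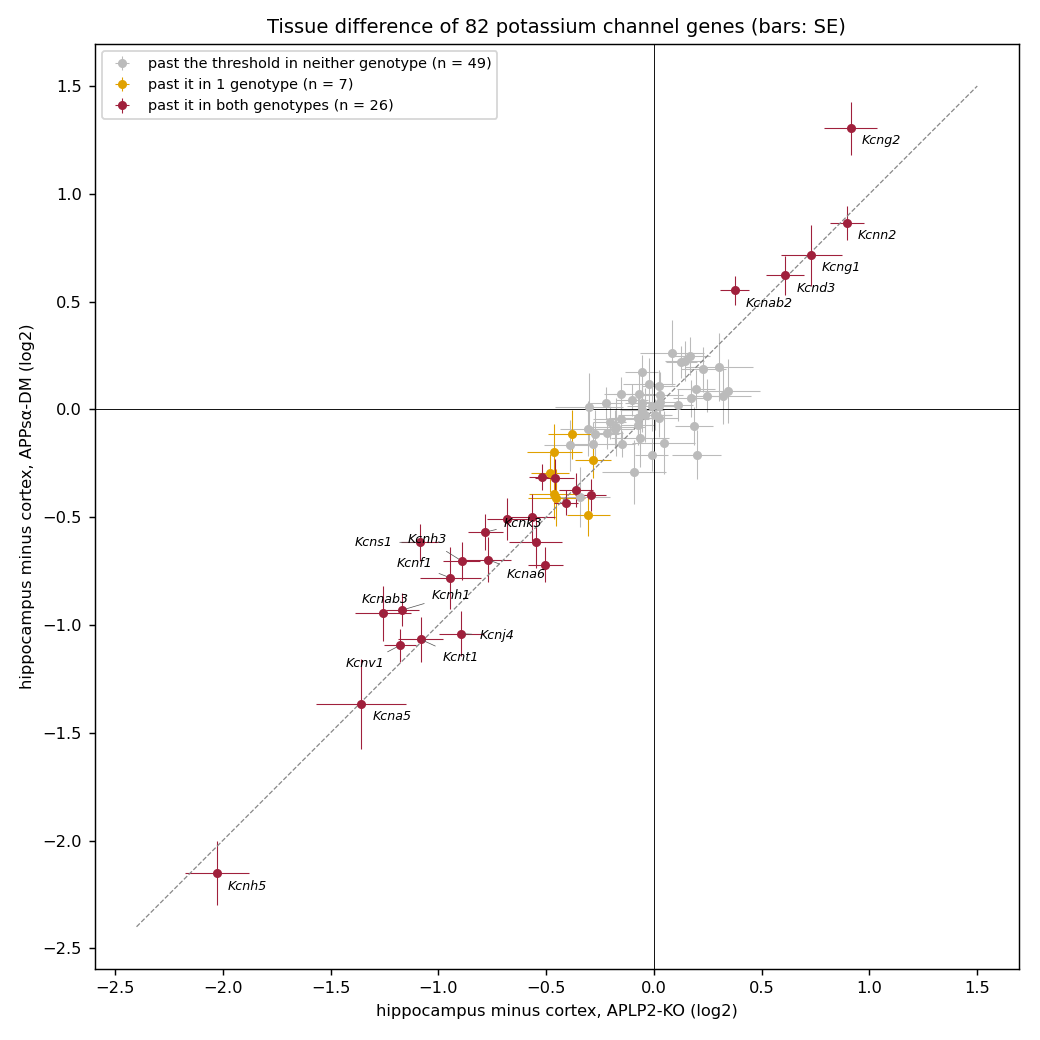
Difference between hippocampus and cortex (log2) of each of the 82 potassium channel genes in APLP2-KO mice (x axis) and APPsα-DM mice (y axis), with bars for the standard error and a dashed line where both are equal. The 26 genes past the threshold in both genotypes lie away from 0 in the same direction, 21 below and 5 above, with Kcnh5 lowest at -2.03 and -2.15.

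Promoter sequences are shown for 4 of these genes, chosen after their values were seen, with 3 from the upper end of the lower list and 1 from the higher list, among genes with exactly 1 entry in the promoter table. Each runs from 250 bases before to 50 bases after the RefSeq start on GRCm38.p6, 5′ to 3′ on the gene's strand, with matches to any of 4 motifs in capitals. Kcnh5 (chr12:75177283-75177582, minus strand), Kcna5 (chr6:126535506-126535805, minus strand) and Kcnh1 (chr1:192190527-192190826, plus strand) were lower in hippocampus. Kcnd3 (chr3:105451640-105451939, plus strand) was higher.
Kcnh5: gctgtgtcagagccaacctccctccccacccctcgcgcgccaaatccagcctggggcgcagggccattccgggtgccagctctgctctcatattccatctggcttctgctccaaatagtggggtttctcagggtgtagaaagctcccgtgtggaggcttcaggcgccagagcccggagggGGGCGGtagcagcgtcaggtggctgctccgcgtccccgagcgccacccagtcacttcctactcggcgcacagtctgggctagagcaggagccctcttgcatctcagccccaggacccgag
Kcna5: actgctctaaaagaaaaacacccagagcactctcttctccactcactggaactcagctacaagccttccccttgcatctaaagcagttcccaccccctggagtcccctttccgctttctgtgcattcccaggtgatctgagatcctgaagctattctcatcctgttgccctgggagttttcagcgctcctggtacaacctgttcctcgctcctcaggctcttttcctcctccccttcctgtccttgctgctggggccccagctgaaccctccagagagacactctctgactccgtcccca
Kcnh1: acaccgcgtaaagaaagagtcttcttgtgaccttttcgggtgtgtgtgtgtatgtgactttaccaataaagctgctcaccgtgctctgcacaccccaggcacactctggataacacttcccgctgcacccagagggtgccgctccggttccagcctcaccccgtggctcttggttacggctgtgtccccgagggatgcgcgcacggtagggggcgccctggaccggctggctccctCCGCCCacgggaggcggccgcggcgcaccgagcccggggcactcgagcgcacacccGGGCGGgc
Kcnd3: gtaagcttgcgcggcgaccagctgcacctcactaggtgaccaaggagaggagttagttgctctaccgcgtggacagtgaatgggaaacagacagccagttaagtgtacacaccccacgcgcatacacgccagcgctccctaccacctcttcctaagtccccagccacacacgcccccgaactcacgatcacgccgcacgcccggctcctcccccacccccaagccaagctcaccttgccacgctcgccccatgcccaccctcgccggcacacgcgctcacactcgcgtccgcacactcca
The motifs, searched on both strands, were the TATA box TATAAA, the GC box GGGCGG, the cAMP response element TGACGTCA and the E box CACGTG, none of which contains another. The Kcnh5 window held 1 GC box and the Kcnh1 window 2, while the Kcna5 and Kcnd3 windows held none of the 4 motifs. GC content was 65.3% in Kcnh5, 66.0% in Kcnh1 and 64.0% in Kcnd3, and 55.0% in Kcna5, whose window had 4 CG pairs against 17, 27 and 25 in the others. Promoters were listed for 62 of the 82 genes, in 86 entries. A GC box stood in 42 of the 86 (48.8%), against 35.7% of all 32851 promoters in the table, and TATAAA in 4 (4.65%), against 13.6%. The E box was in 6 entries (6.98%, against 7.15%) and the cAMP response element in 0 (against 1.79%). A match is a description of these letters and not a measured binding site.

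The ether-à-go-go family (Kcnh), voltage-gated channels with slow gating, had 4 of its 6 genes lower in both genotypes and none higher. The signal of Kcnh5 was 6.14, 6.55 and 6.19 on the 3 APLP2-KO cortex arrays and 4.21, 4.37 and 4.22 on the 3 APLP2-KO hippocampus arrays, against 6.58, 6.16 and 6.21 in APPsα-DM cortex and 4.12, 4.45 and 3.93 in APPsα-DM hippocampus. Kcnh5 encodes Eag2, and its signal was under 5 on every hippocampus array and above 6 on every cortex array. The difference was -2.03 (SE 0.15, adjusted p = 2.24e-06) in APLP2-KO and -2.15 (SE 0.15, adjusted p = 1.57e-06) in APPsα-DM mice, or lower by 4.08-fold in APLP2-KO and 4.44-fold in APPsα-DM mice. Kcnh1 read 9.39, 9.46 and 9.38 in APLP2-KO cortex, 8.11, 8.24 and 8.37 in hippocampus of the same genotype, 9.46, 9.29 and 9.39 in APPsα-DM cortex and 8.39, 8.49 and 8.47 in the hippocampus there. Kcnh1, which encodes the related Eag1, was lower in hippocampus by 2.24-fold and 1.91-fold, with differences of -1.17 (SE 0.08, adjusted p = 9.24e-07) in APLP2-KO and -0.93 (SE 0.08, adjusted p = 6.61e-06) in APPsα-DM mice. Cortex arrays gave Kcnh3 signals of 9.34, 9.27 and 9.21 in APLP2-KO and 9.07, 9.14 and 9.21 in APPsα-DM mice, and hippocampus arrays gave 8.27, 8.36 and 8.51 and 8.33, 8.59 and 8.39. The Elk2 channel is the product of Kcnh3, and its 6 hippocampus arrays all lay below its 6 cortex arrays, with differences of -0.89 and -0.70 (adjusted p = 2.2e-05 and 0.00017). As the mean of all Kcnh3 probe sets these became -0.52 and -0.36. Kcnh2, the Erg1 channel that also repolarises heart muscle, was lower by a smaller amount, with differences of -0.52 and -0.31 (adjusted p = 0.000109 and 0.00503). Kcnh7 (Erg3) differed by -0.34 and -0.41 (adjusted p = 0.144 and 0.0902) and did not pass. With the replicate block it passed in both genotypes (adjusted p = 0.0243 and 0.0129). Kcnh8, the other member, was dim and differed by 0.32 and 0.06 (adjusted p = 0.141 and 0.829).

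Kcna genes encode the Kv1 channels of axons, and 3 of 7 were lower in both genotypes, with none higher. For Kcna5, the APLP2-KO arrays held 6.91, 6.75 and 7.39 in cortex and 6.04, 5.50 and 5.43 in hippocampus, and the APPsα-DM arrays 6.99, 7.26 and 7.66 in cortex and 6.17, 5.88 and 5.77 in hippocampus. Kv1.5, the product of Kcna5, had the second greatest fall after Kcnh5, with differences of -1.36 (SE 0.21, adjusted p = 0.000783) in APLP2-KO and -1.37 (SE 0.21, adjusted p = 0.000905) in APPsα-DM mice. Its spread between arrays was also wide, with SDs of 0.21 to 0.33, though the tissues did not overlap. Kcna6 read 9.04, 8.89 and 9.09 in APLP2-KO cortex, 8.42, 8.25 and 8.04 in hippocampus of the same genotype, 8.92, 9.03 and 9.01 in APPsα-DM cortex and 8.19, 8.48 and 8.20 in the hippocampus there. Kcna6 (Kv1.6) was lower by 1.70-fold and 1.62-fold, with differences of -0.77 and -0.70 (adjusted p = 0.00033 and 0.000836). Kcna2, the Kv1.2 subunit found beside nodes of Ranvier, was lower by 1.48-fold and 1.41-fold, or -0.57 and -0.50 (adjusted p = 0.00391 and 0.0102). Its usual partner Kcna1 (Kv1.1) differed by -0.21 and -0.06 (adjusted p = 0.111 and 0.707), which did not pass. Another Kcna1 probe set differed by -0.35 and -0.12 (adjusted p = 0.0038 and 0.328) and passed in APLP2-KO mice. So did a further one, with -0.34 and -0.15 (adjusted p = 0.0051 and 0.231), while a dim one passed in neither genotype. By their brightest probe sets, the 4 Kv1 genes that passed in neither genotype were Kcna1, Kcna3, Kcna4 and Kcna7.

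The cytoplasmic beta subunits that bind Kv1 channels went in opposite directions. The signal of Kcnab3 was 8.66, 8.85 and 8.38 on the 3 APLP2-KO cortex arrays and 7.45, 7.50 and 7.18 on the 3 APLP2-KO hippocampus arrays, against 8.50, 8.22 and 8.26 in APPsα-DM cortex and 7.27, 7.34 and 7.53 in APPsα-DM hippocampus. Kcnab3 was thus lower on every hippocampus array, by 2.39-fold and 1.93-fold, with differences of -1.26 (SE 0.13, adjusted p = 3.22e-05) in APLP2-KO and -0.95 (SE 0.13, adjusted p = 0.000361) in APPsα-DM mice. Kcnab2 read 11.01, 10.98 and 10.93 in APLP2-KO cortex, 11.26, 11.30 and 11.47 in hippocampus of the same genotype, 10.79, 10.82 and 10.82 in APPsα-DM cortex and 11.32, 11.41 and 11.36 in the hippocampus there. Kcnab2 was higher on every hippocampus array, with smaller differences of 0.38 (SE 0.07, adjusted p = 0.00251) in APLP2-KO and 0.55 (SE 0.07, adjusted p = 0.000168) in APPsα-DM mice. As the mean of all its probe sets, Kcnab2 differed by 0.63 in APLP2-KO mice. Kcnab1, the third beta subunit, differed by 0.20 and 0.09 (adjusted p = 0.189 and 0.579) and did not pass.

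Silent subunits carry no current alone and modify Kv2 channels once assembled with them. This class held genes of both directions, with 2 of 9 higher and 3 lower in both genotypes. Cortex arrays gave Kcng2 signals of 6.83, 6.67 and 7.13 in APLP2-KO and 6.43, 6.43 and 6.76 in APPsα-DM mice, and hippocampus arrays gave 7.76, 7.68 and 7.94 and 7.81, 7.81 and 7.91. Kcng2 (Kv6.2) had the greatest rise of the 82 genes, 1.88-fold and 2.47-fold, with differences of 0.91 (SE 0.12, adjusted p = 0.00029) in APLP2-KO and 1.30 (SE 0.12, adjusted p = 2.02e-05) in APPsα-DM mice. For Kcng1, the APLP2-KO arrays held 7.25, 7.44 and 7.60 in cortex and 7.90, 8.29 and 8.28 in hippocampus, and the APPsα-DM arrays 7.41, 7.31 and 7.52 in cortex and 8.05, 8.42 and 7.92 in hippocampus. Kcng1 (Kv6.1) was higher by 0.73 and 0.72 (adjusted p = 0.00404 and 0.00531), but as the mean of its probe sets, the other of which was dim, by 0.41 and 0.40.

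Kcnv1 read 9.38, 9.48 and 9.40 in APLP2-KO cortex, 8.29, 8.21 and 8.22 in hippocampus of the same genotype, 9.54, 9.30 and 9.28 in APPsα-DM cortex and 8.31, 8.30 and 8.22 in the hippocampus there. Kcnv1 (Kv8.1) was lower in hippocampus with little spread between arrays, by 2.26-fold and 2.14-fold, and its differences were -1.18 (SE 0.08, adjusted p = 7.47e-07) in APLP2-KO and -1.10 (SE 0.08, adjusted p = 1.48e-06) in APPsα-DM mice. The signal of Kcnf1 was 9.18, 9.05 and 9.18 on the 3 APLP2-KO cortex arrays and 8.54, 8.10 and 7.94 on the 3 APLP2-KO hippocampus arrays, against 9.37, 9.03 and 9.44 in APPsα-DM cortex and 8.62, 8.43 and 8.44 in APPsα-DM hippocampus. Kcnf1 (Kv5.1) was lower, with differences of -0.94 and -0.78 (adjusted p = 0.000701 and 0.00324), and no hippocampus array reached a cortex array. Cortex arrays gave Kcns1 signals of 7.17, 7.35 and 7.01 in APLP2-KO and 6.86, 6.97 and 6.79 in APPsα-DM mice, and hippocampus arrays gave 6.15, 6.10 and 6.02 and 6.21, 6.30 and 6.26. For Kcns1 (Kv9.1) the tissue difference was -1.09 (SE 0.09, adjusted p = 4.36e-06) in APLP2-KO and -0.62 (SE 0.09, adjusted p = 0.000468) in APPsα-DM mice, so it was lower in both. Kcng4 passed in APLP2-KO mice, with -0.46 and -0.20 (adjusted p = 0.0313 and 0.402), and that call was lost on leaving out any 1 of 4 APLP2-KO arrays (cortex replicate 1 or 2, hippocampus replicate 1 or 3), with adjusted p = 0.0681 to 0.112, and with a choroid plexus score as a covariate (0.0613). Kcns2, Kcns3 and the dim Kcnv2 passed in neither genotype.

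**Figure D2:**
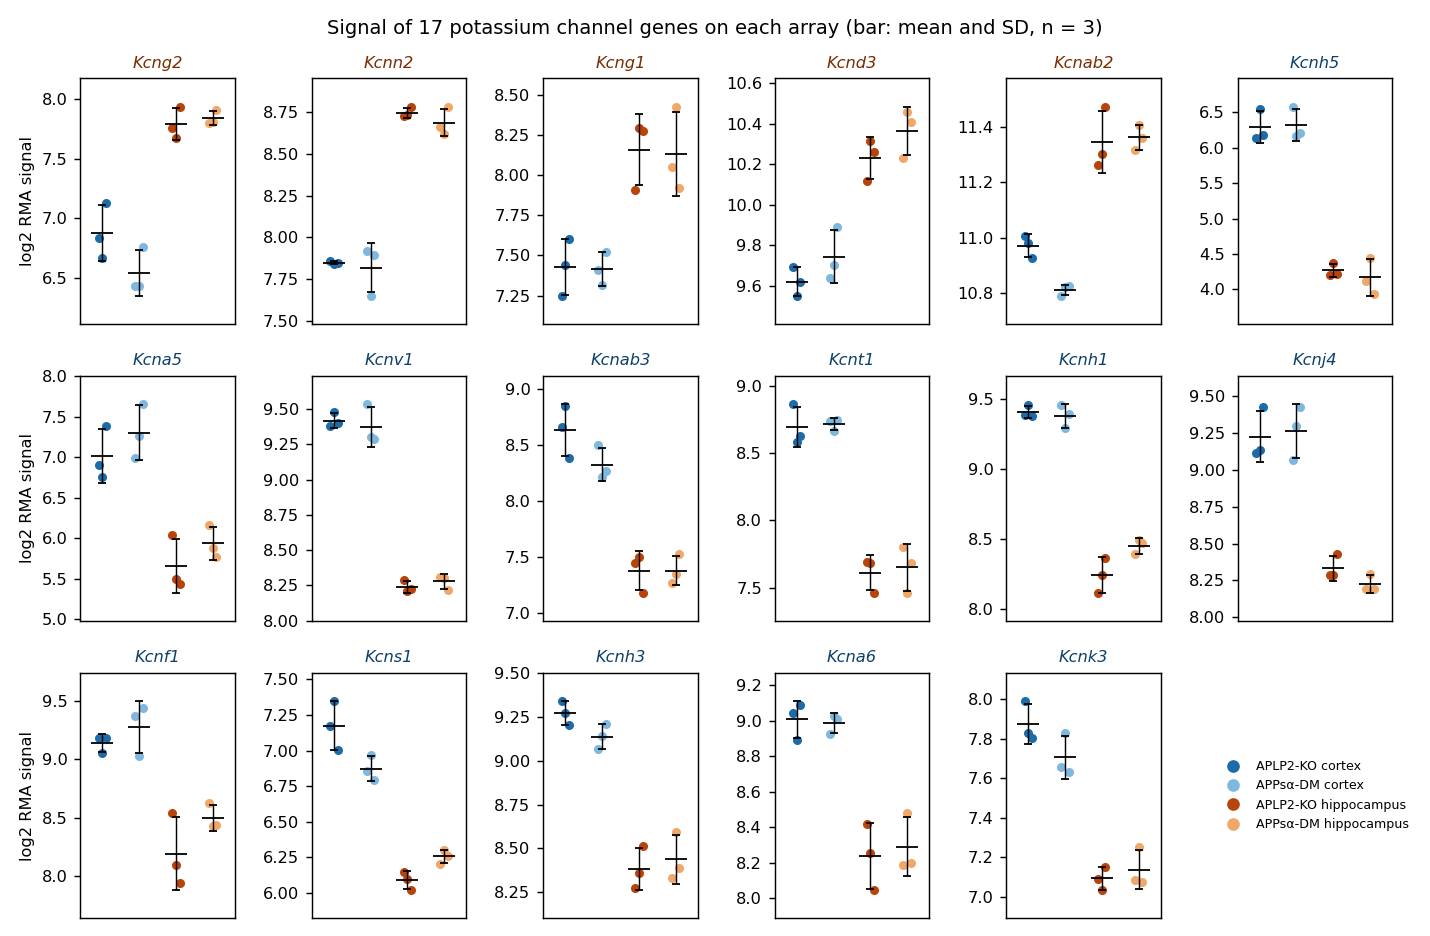
Signal (log2) on each of the 12 arrays of the 5 potassium channel genes with the greatest rises (brown names) and the 12 with the greatest falls (blue names) in hippocampus, by the mean of both genotypes, with points for arrays and bars for mean and SD (n = 3 per group). Each panel has its own axis, and in every panel the hippocampus arrays of a genotype lie all above or all below its cortex arrays.

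Kv4 channels (Kcnd) carry the fast A-type current of dendrites. For Kcnd3, the APLP2-KO arrays held 9.69, 9.55 and 9.62 in cortex and 10.12, 10.31 and 10.26 in hippocampus, and the APPsα-DM arrays 9.64, 9.70 and 9.89 in cortex and 10.23, 10.46 and 10.41 in hippocampus. Kcnd3 (Kv4.3) was higher on every hippocampus array, 1.53-fold and 1.54-fold, with differences of 0.61 (SE 0.09, adjusted p = 0.000507) in APLP2-KO and 0.62 (SE 0.09, adjusted p = 0.000532) in APPsα-DM mice. The mean of all its probe sets in APPsα-DM mice differed by 0.41. Kcnd2, the Kv4.2 subunit of pyramidal cell dendrites, differed by 0.25 and 0.06 (adjusted p = 0.0509 and 0.673) and did not pass. Another Kcnd2 probe set was higher in APLP2-KO mice, with 0.61 and 0.16 (adjusted p = 0.00098 and 0.356). Its remaining probe sets passed in neither genotype, at 0.29 and 0.08 and, for a dim one, -0.01 and -0.12. As the mean of all its probe sets, Kcnd2 passed in APLP2-KO mice. Kcnd1 was lower in APLP2-KO mice with -0.28 and -0.24 (adjusted p = 0.0458 and 0.102), and that call was lost under 12 of the 21 alternatives that change the fit (adjusted p = 0.0535 to 0.366). Among them were leaving out any 1 of the 6 APLP2-KO arrays, APPsα-DM cortex replicate 1 or hippocampus replicate 3, leaving out the Ttr-high arrays (0.075), and the mean of all its probe sets, which differed by -0.13. Kcnip genes encode the calcium sensors (KChIPs) that bind Kv4 channels, and 0 of 4 passed in both genotypes. Of these Kcnip1 was lower in APLP2-KO mice, with -0.48 and -0.29 (adjusted p = 0.00259 and 0.0506). As the mean of all its probe sets, Kcnip1 did not pass in APLP2-KO mice (-0.17, adjusted p = 0.0574) but passed in APPsα-DM mice. Another Kcnip1 probe set also passed in APPsα-DM mice only, with -0.02 and -0.30 (adjusted p = 0.91 and 0.0375). Kcnip3, also called calsenilin or DREAM, differed by -0.22 and 0.03 (adjusted p = 0.0727 and 0.864).

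The Kv3 channels (Kcnc) allow fast spiking, and 1 of 3 measured genes passed in both genotypes. Kcnc1 read 10.36, 10.22 and 10.16 in APLP2-KO cortex, 9.77, 9.79 and 9.81 in hippocampus of the same genotype, 10.40, 10.38 and 10.10 in APPsα-DM cortex and 9.87, 10.05 and 9.99 in the hippocampus there. Kcnc1 (Kv3.1) was lower, with differences of -0.46 and -0.32 (adjusted p = 0.00409 and 0.0394). As the mean of all its probe sets it differed by -0.23 and -0.14, and 2 of its 3 other probe sets passed in neither genotype, with -0.04 and 0.03 for one and 0.01 and -0.12 for the other. The call in APPsα-DM mice was lost under 13 of the 21 alternatives that change the fit, with adjusted p = 0.0509 to 0.142, among them leaving out APPsα-DM cortex replicate 1 or 2 or hippocampus replicate 1 or 3, any APLP2-KO hippocampus array or APLP2-KO cortex replicate 2. It was also lost without the pair of cortex arrays high in Ttr (adjusted p = 0.142) and with the replicate block (0.0689). Kcnc2 and Kcnc4 passed in neither genotype. Kv7 channels (Kcnq) carry the M-current, and Kcnq5 was lower, with differences of -0.29 and -0.40 (adjusted p = 0.0193 and 0.00344). Its call in APLP2-KO mice was lost on leaving out cortex replicate 2 or hippocampus replicate 2 or 3 of that genotype, with adjusted p = 0.0513 to 0.069. Kcnq1 and Kcnq3 passed in neither, and the 4 Kcne genes, single-span accessory subunits, had none past the threshold.

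Inward rectifiers (Kcnj) formed the largest class with 14 genes, of which 2 were lower in both genotypes and none higher. The signal of Kcnj4 was 9.12, 9.14 and 9.43 on the 3 APLP2-KO cortex arrays and 8.29, 8.28 and 8.43 on the 3 APLP2-KO hippocampus arrays, against 9.07, 9.30 and 9.43 in APPsα-DM cortex and 8.19, 8.29 and 8.19 in APPsα-DM hippocampus. Kcnj4, which encodes Kir2.3, was lower by 1.86-fold and 2.06-fold with non-overlapping arrays, and its differences were -0.89 (SE 0.10, adjusted p = 9.43e-05) in APLP2-KO and -1.04 (SE 0.10, adjusted p = 3.37e-05) in APPsα-DM mice. Kcnj12 read 5.91, 5.89 and 5.63 in APLP2-KO cortex, 5.24, 5.28 and 5.28 in hippocampus of the same genotype, 5.54, 5.70 and 5.78 in APPsα-DM cortex and 4.77, 5.30 and 5.11 in the hippocampus there. Kcnj12 (Kir2.2) lay lower on each hippocampus array, with differences of -0.55 and -0.62 (adjusted p = 0.0096 and 0.00536). Kcnj9, a subunit of the GIRK channels that G proteins open, was lower in APLP2-KO mice and just missed the threshold in APPsα-DM mice, with -0.46 and -0.39 (adjusted p = 0.0188 and 0.0501), where it passed with the replicate block (adjusted p = 0.0131). Leaving out cortex replicate 1 or 2 or hippocampus replicate 2 or 3 of the APLP2-KO mice ended its call there (adjusted p = 0.0533 to 0.0852). Kcnj2 (Kir2.1) was dim, and its fall in APLP2-KO mice (-0.38, adjusted p = 0.0489) did not pass with the replicate block (adjusted p = 0.0709), with the choroid plexus covariate (0.0799), without the Ttr-high arrays (0.0638) or without any 1 of 9 single arrays (0.0526 to 0.187): all APLP2-KO arrays but cortex replicate 3, every APPsα-DM cortex array and APPsα-DM hippocampus replicate 3. The other 10, among them the astrocyte channel Kcnj10 (Kir4.1) and the ATP-sensitive Kcnj8 and Kcnj11, passed in neither genotype. As the mean of its probe sets, Kcnj11 passed in both genotypes. Its other probe set alone differed by -0.28 and -0.23 (adjusted p = 0.0712 and 0.158).

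K2P leak channels (Kcnk) had 3 of 12 genes lower in both genotypes and none higher. Cortex arrays gave Kcnk3 signals of 7.99, 7.83 and 7.80 in APLP2-KO and 7.66, 7.83 and 7.63 in APPsα-DM mice, and hippocampus arrays gave 7.09, 7.04 and 7.15 and 7.08, 7.25 and 7.07. The acid-sensitive TASK-1 channel is encoded by Kcnk3, which was lower by 1.72-fold and 1.48-fold, with differences of -0.78 (SE 0.08, adjusted p = 3.86e-05) in APLP2-KO and -0.57 (SE 0.08, adjusted p = 0.000553) in APPsα-DM mice. For Kcnk2, the APLP2-KO arrays held 9.86, 9.79 and 9.77 in cortex and 9.26, 9.33 and 9.32 in hippocampus, and the APPsα-DM arrays 9.75, 9.77 and 10.04 in cortex and 9.23, 9.11 and 9.06 in hippocampus. The stretch- and lipid-sensitive TREK-1 channel is encoded by Kcnk2, which was lower, with differences of -0.50 and -0.72 (adjusted p = 0.00129 and 0.000101). Kcnk4 read 7.27, 7.37 and 7.31 in APLP2-KO cortex, 6.63, 6.60 and 6.69 in hippocampus of the same genotype, 7.07, 7.16 and 6.95 in APPsα-DM cortex and 6.49, 6.79 and 6.38 in the hippocampus there. Kcnk4, the related TRAAK channel, was lower, with differences of -0.68 and -0.51 (adjusted p = 0.000407 and 0.00393). Thus all 3 had hippocampus arrays below every cortex array. Kcnk6 was lower in APLP2-KO mice, with -0.45 and -0.41 (adjusted p = 0.0412 and 0.0713), and passed in APPsα-DM mice with the replicate block (adjusted p = 0.0433). The APLP2-KO call was lost under 11 of the 21 alternatives that change the fit (adjusted p = 0.0528 to 0.152), among them leaving out APLP2-KO cortex replicate 1 or 3, APLP2-KO hippocampus replicate 1 or 2, APPsα-DM cortex replicate 3 or any APPsα-DM hippocampus array, and without the Ttr-high arrays (0.0845).

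Channels gated by intracellular ions also went both ways. The signal of Kcnn2 was 7.86, 7.84 and 7.85 on the 3 APLP2-KO cortex arrays and 8.72, 8.73 and 8.78 on the 3 APLP2-KO hippocampus arrays, against 7.92, 7.65 and 7.89 in APPsα-DM cortex and 8.66, 8.62 and 8.78 in APPsα-DM hippocampus. Kcnn2 encodes SK2, the calcium-activated channel of the afterhyperpolarisation, and was higher in hippocampus by 1.86-fold and 1.82-fold, with differences of 0.90 (SE 0.08, adjusted p = 8.59e-06) in APLP2-KO and 0.87 (SE 0.08, adjusted p = 1.29e-05) in APPsα-DM mice. Kcnn1, Kcnn3 and Kcnn4 passed in neither genotype. Kcnt1 read 8.87, 8.58 and 8.63 in APLP2-KO cortex, 7.69, 7.68 and 7.46 in hippocampus of the same genotype, 8.74, 8.66 and 8.75 in APPsα-DM cortex and 7.81, 7.46 and 7.68 in the hippocampus there. Kcnt1 encodes Slack, a sodium-activated channel, and was lower by 2.12-fold and 2.09-fold, with differences of -1.08 (SE 0.10, adjusted p = 1.86e-05) in APLP2-KO and -1.07 (SE 0.10, adjusted p = 2.44e-05) in APPsα-DM mice. Its relative Kcnt2 (Slick) passed in APPsα-DM mice alone of the 2 genotypes, with -0.30 and -0.49 (adjusted p = 0.072 and 0.007), and the difference between the genotypes was -0.18 (unadjusted p = 0.22). Under several alternatives Kcnt2 passed in APLP2-KO mice too, among them only the groups compared, array weights, and eBayes with trend and robust. Kcnmb4, the beta subunit of neuronal BK channels, was lower, with differences of -0.41 and -0.43 (adjusted p = 0.000408 and 0.000309), and the transcript Kcnmb4os2 from the opposite strand of that gene was lower as well, with -0.36 and -0.37 (adjusted p = 0.00914 and 0.00866). The BK pore gene Kcnma1 differed by -0.39 and -0.17 (adjusted p = 0.0501 and 0.452) and did not pass. In APLP2-KO mice it passed under several alternatives, among them median centring, array weights and leaving out APLP2-KO cortex replicate 1. A dim Kcnma1 probe set went the other way, with 0.51 and 0.91 (adjusted p = 0.168 and 0.0178), and passed in APPsα-DM mice. Its remaining probe sets passed in neither genotype, at 0.46 and 0.54, -0.25 and -0.14, and -0.22 and -0.14. The imprinted noncoding RNA Kcnq1ot1 differed by 0.17 and 0.05 (adjusted p = 0.248 and 0.782).

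**Figure D3:**
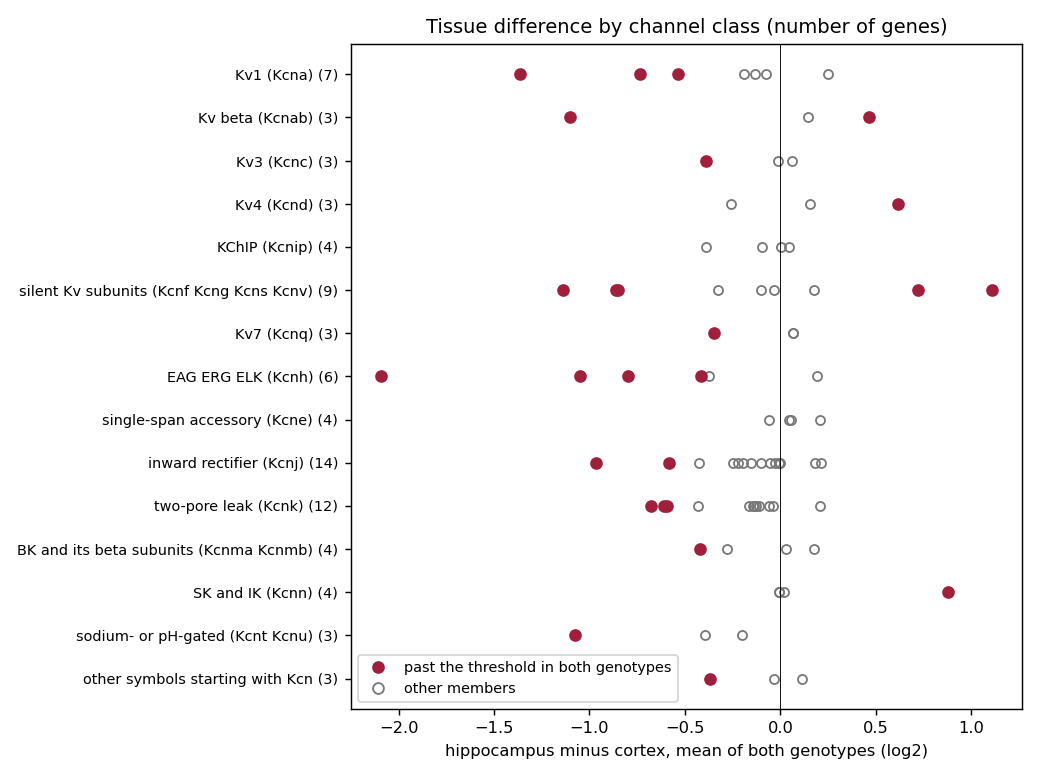
Mean of both genotypes' differences between hippocampus and cortex (log2, x axis) for the 82 genes, by class of channel subunit, with the number of genes in brackets; filled points passed the threshold in both genotypes. The Kcnh, Kv1, inward rectifier and K2P (two-pore) classes have filled points below 0 only, while the silent subunits and Kv beta subunits have them on both sides.

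The 49 genes past the threshold in neither genotype had differences between -0.39 and 0.34 in APLP2-KO and between -0.41 and 0.26 in APPsα-DM mice, and 12 of the 13 dim genes were among them. The 69 genes that were not dim included 31 that passed in APLP2-KO (44.9%) and 27 in APPsα-DM mice (39.1%). The share that passed among all probe sets that were not dim was not computed. These percentages therefore cannot be set against the shares given above, which include dim probe sets. Other probe sets were present for 46 of the genes. Of 14 genes called in both genotypes that had any, 12 had another probe set called the same way in both, and 0 had one called the opposite way. Some of the 12, among them Kcnh3, Kcnd3, Kcna2, Kcna6 and Kcnq5, also had a probe set that passed in neither genotype. Examples were -0.21 and -0.35 for Kcna2, -0.32 and -0.25 for Kcna6, and -0.11 and -0.52 for Kcnq5. For Kcnj3 and Kcnj6, subunits of the G protein-gated channels, a minor dim probe set was higher in both genotypes (0.54 and 0.42 for Kcnj3, 0.44 and 0.31 for Kcnj6) while the brightest one did not pass. For Kcnj9 a second probe set was lower in both, with differences of -0.72 and -0.47.

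A list of 20 genes outside the Kcn symbols that encode partners of these channels, or the related HCN channels, had 17 measured members, of which 2 were higher and 3 lower in both genotypes. Over all probe sets, 3.89% were higher and 4.43% lower in both, and over genes 5.06% and 6.30%. Dpp10, an auxiliary subunit of Kv4 channels, was lower, with differences of -1.43 in APLP2-KO and -1.30 in APPsα-DM mice (adjusted p = 2.9e-05 and 7.43e-05), while its relative Dpp6 was higher by 0.32 in APLP2-KO and 0.38 in APPsα-DM mice (adjusted p = 0.00671 and 0.00261). As the mean of all its probe sets, Dpp6 differed by -0.12 and 0.03 and did not pass (adjusted p = 0.475 and 0.898). The adhesion molecule Cntn2, which gathers Kv1 channels beside nodes of Ranvier, was lower, with differences of -0.67 in APLP2-KO and -0.54 in APPsα-DM mice (adjusted p = 0.000984 and 0.0053), and of -0.36 and -0.33 as the mean of its probe sets. Lgi1, a secreted protein tied to Kv1 channels, was higher by 0.50 in APLP2-KO and 0.50 in APPsα-DM mice (adjusted p = 0.000223 and 0.000263), and its receptor Adam22 was lower, with differences of -0.26 in APLP2-KO and -0.30 in APPsα-DM mice (adjusted p = 0.0457 and 0.0287). The Adam22 call was lost in APLP2-KO mice under 13 of the 21 alternatives that change the fit (adjusted p = 0.0516 to 0.145), among them any 1 of 10 single arrays: every APLP2-KO array, every APPsα-DM cortex array and APPsα-DM hippocampus replicate 3. In APPsα-DM mice it was lost under 8 of 21 (adjusted p = 0.0664 to 0.13), among them leaving out cortex or hippocampus replicate 1 or 3 of that genotype. In both it was lost without the Ttr-high arrays (adjusted p = 0.0989 and 0.0689) and with the replicate block (0.0894 and 0.0664). Amigo1, a partner of Kv2 channels, passed in APLP2-KO mice, with -0.42 in APLP2-KO and -0.15 in APPsα-DM mice (adjusted p = 0.000791 and 0.193), and there the mean of its probe sets differed by -0.21. Hcn2 and Hcn3, the HCN genes measured, did not pass.

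Markers of other cells moved between the same tissues. Summed signals (log2) of cortical projection neuron markers were 13.77 to 13.98 on cortex arrays and 12.59 to 12.90 on hippocampus arrays, and those of hippocampal neurons 11.28 to 11.46 and 12.73 to 13.11. Among striatal markers, Drd2 differed by -2.79 in APLP2-KO and -3.16 in APPsα-DM mice (adjusted p = 2.5e-06 and 1.06e-06). Of 12 markers of GABAergic interneurons, 4 were lower in both genotypes (Pvalb, Slc32a1, Vip and Npy), with Pvalb at -0.94 in APLP2-KO and -0.73 in APPsα-DM mice (adjusted p = 0.000123 and 0.00106) and their summed signals at 14.21 to 14.36 in cortex and 13.93 to 14.07 in hippocampus. Astrocyte markers had 2 of 11 higher and 1 lower, smooth muscle and leptomeningeal markers 3 of 9 higher, and thalamic markers 1 of 6 lower in both. Oligodendrocyte (8 measured), microglia (8) and choroid plexus (9) markers had 0 past the threshold, and of 10 endothelial and pericyte markers 3 were lower in APLP2-KO and 0 in APPsα-DM mice. The part of these cell types in the potassium channel differences was not tested.

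The genotype comparison asked whether replacing APP by APPsα, with APLP2 absent throughout, changed potassium channel genes. No gene of the 82 passed the test in cortex or in hippocampus (limma), where 0.00888% of all probe sets passed in each tissue. The smallest adjusted p among the 82 was 0.9996 in cortex and 0.9998 in hippocampus. At an unadjusted p under 0.05 there were 7 genes in cortex (8.54%, against 4.50% of all probe sets) and 5 in hippocampus (6.10%, against 4.11%). The greatest differences were 0.34 in size in cortex and 0.32 in hippocampus, at a median standard error of 0.10. Median differences over the 82 genes were -0.02 and 0.02, against 0.00 over all probe sets in both tissues. No overlap between the arrays of APLP2-KO and APPsα-DM mice was seen for 7 genes in cortex, all lower in APPsα-DM mice (8.54%, against 4.66% of all probe sets), and 0 were higher (against 4.07%). In hippocampus 6 genes were higher (7.32%, against 4.10%) and 5 lower (6.10%, against 5.78%) without overlap.

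In cortex the smallest p belonged to Kcns1, whose APPsα-DM arrays (6.86, 6.97 and 6.79) all lay below the APLP2-KO arrays (7.17, 7.35 and 7.01), a difference of -0.30 (SE 0.09, unadjusted p = 0.00421). Kcnk4 (-0.26, unadjusted p = 0.0194), Kcnk12, the silent K2P subunit THIK-2 (-0.20, 0.0252), and Kcnab2 (-0.16, 0.0356) also did not overlap. Kcng2 was -0.34 (0.0177), and -0.15 without the Ttr-high cortex arrays or -0.21 without APLP2-KO cortex replicate 3 alone. Kcnab3 was -0.31 (0.0336) and Kcnk3 -0.17 (0.0616), both with overlapping arrays. Kcnk3 was -0.26 without the Ttr-high arrays, -0.11 without APLP2-KO cortex replicate 1 and -0.09 as the mean of its probe sets. The one gene of the 8 with a higher mean was Kcns2, at 0.29 (0.0473), and at 0.13 without those 2 arrays. Without APLP2-KO cortex replicate 2, Kcnab3 was -0.20. None of these values is past the threshold after adjustment.

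In hippocampus Kcnh2 had the smallest p: its APPsα-DM arrays read 8.31, 8.24 and 8.27 and its APLP2-KO arrays 8.09, 8.05 and 8.11, so all 3 were higher, by 0.19 (SE 0.06, unadjusted p = 0.00926). Kcnn3, the SK3 channel gene, read 5.09, 5.09 and 5.07 against 5.42, 5.42 and 5.37, a difference of -0.32 (unadjusted p = 0.016). Kcnh1 was 0.21 (0.0177), Kcnc4, the Kv3.4 gene, 0.19 (0.0279) and Kcnip3 0.17 (0.0367), all higher without overlap. The other 3 of the 8 smallest were Kcne1 (-0.19), Kcnf1 (0.30) and Kcnk2 (-0.17), with unadjusted p = 0.0524, 0.0578 and 0.0606. Kcne1 lies on chromosome 16, as App does, and a part of DNA near the edited allele in its difference was not tested. As means of all their probe sets, Kcnip3 was 0.06, Kcne1 -0.08 and Kcnf1 0.15. Without APPsα-DM hippocampus replicate 2, Kcnip3 was 0.11. Without APLP2-KO hippocampus replicate 1, Kcnf1 was 0.47, and without replicate 3 it was 0.17.

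**Figure D4:**
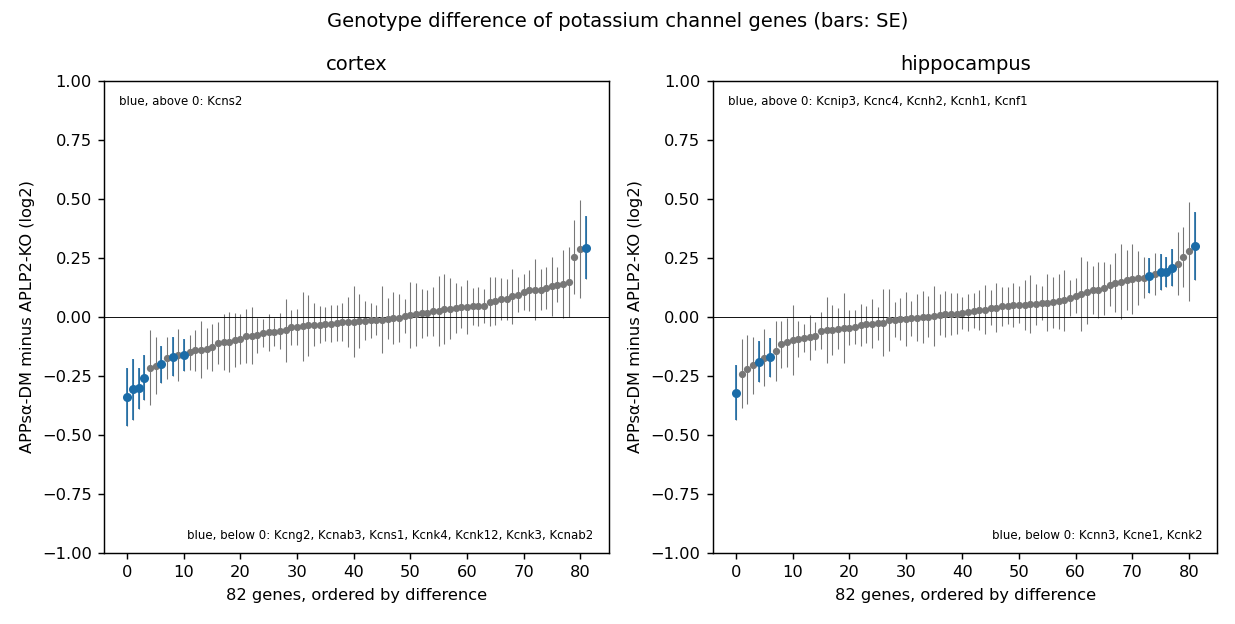
Difference between APPsα-DM and APLP2-KO mice (log2) of the 82 genes in cortex (left) and hippocampus (right), ordered by size within each tissue, with bars for the standard error. Blue points are the 8 genes with the smallest p in each tissue, named in the panels; no gene passed the adjusted threshold, and sizes stayed within 0.34.

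The difference between the tissues in the genotype effect, which is also the difference between the genotypes in the tissue effect, passed for 0 of 82 genes and 0 of all probe sets, or 0% (limma). At an unadjusted p under 0.05 there were 6 genes (7.32%, against 3.79% of all probe sets). Kcns1 came first at 0.47 (SE 0.12, unadjusted p = 0.00226), with APPsα-DM lower in cortex (-0.30) and higher in hippocampus (0.17), each without overlapping arrays. Its tissue difference was -1.09 in APLP2-KO and -0.62 in APPsα-DM mice. Kcnn3 followed at -0.41 (0.0271), Kcnip3 at 0.25 (0.0329) and Kcnh2 at 0.20 (0.0375). As the mean of its probe sets the Kcnip3 value was 0.11. The smallest adjusted p among the 82 genes was 0.9998.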

How the data were processed

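Total RNA of 12 tissue samples was hybridised to Affymetrix expression arrays. Per the submitters' processing notes the authors used RMA and the affy package, with versions not given in the sources used here, and they deposited log2 signals per probe set, with array medians between 5.86 and 5.91. Gene names came from the platform annotation (34945 probe sets with 1 symbol, 932 with several, 9160 with none), and all 82 symbols matched current ones. Promoters came from a RefSeq table. In R 4.3.3, limma 3.58.1 (lmFit, eBayes) estimated 4 group means per probe set from the 12 arrays together, leaving 8 residual degrees of freedom, for 45037 probe sets, without 64 controls. Contrasts were hippocampus minus cortex in each genotype, the genotype difference (APPsα-DM less APLP2-KO) within a tissue, and how that differs between tissues. P-values were adjusted by Benjamini-Hochberg over all probe sets, and every adjusted p is limma's. The script was tested on simulated data. With 3 arrays a group, an exact two-sided permutation test of 1 gene cannot go below p = 0.1, so the shared spread of the fit carries the test.

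Deviations from the group means of same-numbered cortex and hippocampus correlated at 0.11, 0.13 and 0.16 in APLP2-KO mice. In APPsα-DM mice they correlated at 0.08, 0.02 and 0.04. Same-numbered hippocampus arrays of different genotypes, which cannot share a mouse, correlated at 0.12, 0.03 and 0.21. These values therefore cannot show whether the numbers pair samples of the same mouse. The fit with a replicate block is given for both genotypes where it changes a call. Where it kept a call, the adjusted p rose for some genes, as for Kcnh1 in APLP2-KO mice (6.52e-05 against 9.24e-07). For others it fell, as for Kcng2 in APLP2-KO mice (0.000166 against 0.00029). Alternatives were this block, only the groups compared, a filter at a mean of 5, eBayes with trend and robust, array weights, median centring, the mean of a gene's probe sets, a choroid plexus covariate, omission of 2 cortex arrays high in Ttr, a minimum difference of 0.5 and omission of each array. Genes described in full were those past the threshold in both genotypes with non-overlapping arrays (up to 12 per direction), the 8 with the smallest p per tissue for genotype, the 4 smallest for the difference between tissues, genes called in 1 genotype, and up to 2 more per class. Kcnj10, Kcnj8, Kcnj11 and Kcnh8 are named besides. The genes and the lists of classes, partners and markers were chosen with earlier results of these data known. The number of arrays limits the precision.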

Additional observations from a re-analysis of the deposited data

How the results depend on the processing

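Of the 26 genes called in both tissue comparisons, 24 kept both calls and their direction under each of 21 alternatives, the minimum difference aside, and Kcnc1 and Kcnq5 did not. The 34 tissue values of the 17 genes shown in full and the 20 genotype values named kept their direction and side of the threshold under each of those 21 that could be run. The minimum difference of 0.5 was applied to counts, and it would leave out Kcnab2 in APLP2-KO mice (0.38). For APLP2-KO mice, 8 genes were higher in hippocampus with array weights (5 without), and 17 were lower with a minimum difference of 0.5 (27 without). Array weights added Kcna1, Kcnd2, Kcnh8, Kcnip3, Kcnk1, Kcnk12, Kcnma1, Kcnq1ot1 and Kcnt2 to the genes called in APLP2-KO mice. Leaving out 1 array at a time gave 5 to 6 higher and 22 to 27 lower genes in APLP2-KO, and 5 to 6 higher and 21 to 24 lower in APPsα-DM mice. The genotype comparisons and the difference between tissues had 0 genes under every alternative, and the smallest adjusted p of a named genotype value was 0.158. The replicate block, which pairs same-numbered cortex and hippocampus, gave 5 higher and 27 lower genes in APLP2-KO mice, 31 of 32 being shared. In APPsα-DM mice it gave 5 higher and 24 lower, losing Kcnc1 and adding Kcnh7, Kcnj9 and Kcnk6. Same-numbered samples of the genotypes correlated at -0.08, -0.25 and -0.13 in cortex and 0.12, 0.03 and 0.21 in hippocampus.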
